A study of Mus musculus with 2 samples.

Results

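The 1-kb bins of the mouse genome that were unmethylated in both sperm and tail DNA are described here. They were chosen by their measured level: chromosomes 1 to 19 were divided into 1-kb bins, the methylated and unmethylated CpG calls of each bin were summed per library, and a bin was taken when it had at least 20 calls in both libraries and a methylation level (methylated calls over all calls) of at most 0.1 in both. This gave 1776 of the 17787 bins measured in both libraries (9.98%). At most 0.1 was reached by 2105 bins (11.8%) in sperm and 1951 bins (11.0%) in tail, and 9568 bins (53.8%) were above 0.8 in both. Because the levels chose the bins, they are given as a description and were not tested. The DNA came from sperm and from tail of 1 adult male C57BL/6J mouse, with 1 library per tissue and therefore no replicate. In TEPBAT, bisulfite-converted DNA is copied from tagged random primers and then amplified from a primer placed inside the LTR of IAP retrotransposons, so that most reads come from IAP copies and the sequence beside them. The sperm library held 95744413 calls and the tail library 55366653 calls, and on chromosomes 1 to 19 87.9% of the sperm calls and 88.4% of the tail calls were methylated.

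Most CpG sites of mammalian genomes are methylated, and CpG islands, GC-rich stretches that keep many CpG sites and often contain promoters, are the main exception in germ cells and in somatic tissue alike. IAP elements are endogenous retroviruses of the mouse whose LTRs are CpG-rich but are usually kept methylated and silent.

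The promoters of 4 of the deepest unmethylated bins with a gene start are shown because they carry a common feature of the set, many CpG sites. Their depth is not typical, as the median bin of the set had 46.0 calls in each library. Their low level follows from the choice of the bins. Each is the RefSeq promoter sequence (GRCm38, the assembly of mm10), 5′ to 3′ on the strand of the gene, with CpG sites in capitals. Mcm8, a helicase gene of recombination and DNA repair, has its promoter at chr2:132815891-132816190 (+ strand) with 30 CpG sites. Pgp, the phosphoglycolate phosphatase gene, is at chr17:24470176-24470475 (+ strand) with 39 CpG sites. Socs1, a feedback inhibitor of cytokine signalling, is at chr16:10785487-10785786 (- strand) with 18 CpG sites. Unc13a, which primes synaptic vesicles for release, is at chr8:71671708-71672007 (- strand) with 27 CpG sites.
Mcm8: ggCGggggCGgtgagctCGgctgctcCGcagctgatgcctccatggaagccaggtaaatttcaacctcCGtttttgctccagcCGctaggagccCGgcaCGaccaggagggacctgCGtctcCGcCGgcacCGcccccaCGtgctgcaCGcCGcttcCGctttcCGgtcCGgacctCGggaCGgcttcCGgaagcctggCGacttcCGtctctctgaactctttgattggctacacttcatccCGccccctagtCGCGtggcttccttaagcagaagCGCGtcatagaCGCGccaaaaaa
Pgp: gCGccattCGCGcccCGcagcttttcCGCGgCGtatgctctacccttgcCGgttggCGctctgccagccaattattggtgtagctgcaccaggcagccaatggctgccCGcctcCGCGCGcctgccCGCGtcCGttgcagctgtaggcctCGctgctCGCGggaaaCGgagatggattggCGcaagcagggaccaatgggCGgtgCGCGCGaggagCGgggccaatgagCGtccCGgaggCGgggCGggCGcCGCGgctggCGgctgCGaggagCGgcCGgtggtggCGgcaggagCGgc
Socs1: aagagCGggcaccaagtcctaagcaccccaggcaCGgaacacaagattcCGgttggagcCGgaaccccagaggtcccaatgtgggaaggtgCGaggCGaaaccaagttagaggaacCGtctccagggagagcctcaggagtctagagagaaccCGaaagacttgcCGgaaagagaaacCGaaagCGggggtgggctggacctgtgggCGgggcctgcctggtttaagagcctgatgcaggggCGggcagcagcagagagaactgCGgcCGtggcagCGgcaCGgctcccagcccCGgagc
Unc13a: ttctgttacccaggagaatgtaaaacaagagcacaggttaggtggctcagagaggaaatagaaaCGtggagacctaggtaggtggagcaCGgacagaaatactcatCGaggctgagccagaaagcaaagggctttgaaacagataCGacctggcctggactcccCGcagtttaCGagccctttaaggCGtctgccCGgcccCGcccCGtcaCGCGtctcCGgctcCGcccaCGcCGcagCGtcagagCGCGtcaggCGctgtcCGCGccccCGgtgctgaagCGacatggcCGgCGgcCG

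In the Mcm8 stretch 112 of 24900 sperm calls and 36 of 12259 tail calls were methylated. The Pgp stretch had 19 of 7966 methylated calls in sperm and 13 of 4264 in tail. The Socs1 stretch had 21 of 7352 in sperm and 1 of 1616 in tail. Unc13a had 2 of 1143 in sperm and 0 of 1014 in tail, so that these promoters were nearly free of methylated calls in both libraries.

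Of the 2 unmethylated bins that overlap an IAP copy, the one on chromosome 3 was the deepest of all unmethylated bins. The first sequence below covers the edge of its LTR (chr3:96489166-96489465, + strand of mm10). The second runs from an unmethylated bin on chromosome 17 into an IAPLTR2a copy that lies 92 bp beyond the bin (chr17:60164900-60165140, + strand). CpG sites are in capitals. The IAP-BS2 primer is shown with its last 8 bases in capitals because the PCR used it or IAP-BS1 to amplify fragments from LTRs.
LTR bin of chromosome 3: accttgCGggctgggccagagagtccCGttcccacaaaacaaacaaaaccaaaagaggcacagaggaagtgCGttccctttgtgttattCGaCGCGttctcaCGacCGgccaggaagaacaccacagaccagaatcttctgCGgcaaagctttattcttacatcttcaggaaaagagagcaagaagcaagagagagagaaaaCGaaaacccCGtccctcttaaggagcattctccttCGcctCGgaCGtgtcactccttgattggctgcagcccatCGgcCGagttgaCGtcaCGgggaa
LTR flank of chromosome 17: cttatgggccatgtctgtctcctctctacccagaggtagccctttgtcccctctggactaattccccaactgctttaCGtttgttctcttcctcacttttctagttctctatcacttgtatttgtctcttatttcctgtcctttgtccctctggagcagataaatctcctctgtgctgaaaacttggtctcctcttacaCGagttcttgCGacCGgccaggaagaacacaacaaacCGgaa
IAP-BS2: ggtttttgaagatgtaagtaatAAAGTTTT

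The unmethylated bins lay mostly at gene starts. A gene start (GENCODE M21) lay inside 989 of the 1776 bins (55.7%, exact 95% interval 53.3 to 58.0) and inside 7.18% of all measured bins. Within 1 kb there was a gene start for 1436 unmethylated bins (80.9%, 78.9 to 82.7), against 12.6% of all measured bins and 5.02% of the bins that were not unmethylated in both. Most measured bins (61.3%) lay within 1 kb of an IAP copy. Among measured bins with no IAP copy within 1 kb, 1433 of 1874 with a gene start within 1 kb were unmethylated (76.5%). Without such a start 335 of 5014 were (6.68%). A protein-coding gene start lay within 1 kb of 76.6% of the unmethylated bins and of 9.10% of all measured bins. With starts of single transcripts instead of genes, the share within 1 kb was 90.5% for the unmethylated bins and 16% for all measured bins. These intervals are exact binomial (Clopper-Pearson) intervals. Reads were amplified by PCR and carry no molecular identifiers, so several calls can come from 1 molecule and every interval given covers counting error only.

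**Figure D1:**
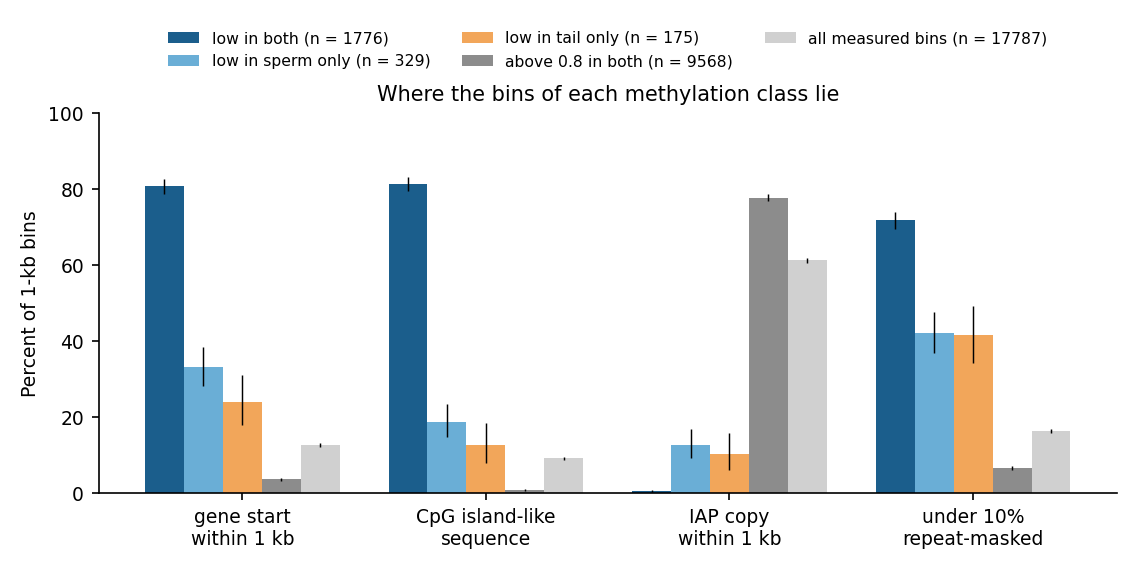
Percent of 1-kb bins (y axis) with a gene start within 1 kb, with CpG island-like sequence, with an IAP copy within 1 kb and with under 10% repeat-masked sequence, for bins at most 0.1 in both libraries, in sperm only and in tail only, above 0.8 in both, and for all measured bins; bars are shares and lines exact 95% intervals. The bins unmethylated in both had a gene start within 1 kb in 80.9% and an IAP copy in 0.45%, against 12.6% and 61.3% of all measured bins.

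The bins low in 1 library only lay less often at gene starts than the bins unmethylated in both, but more often than all measured bins. Of the 329 bins at most 0.1 in sperm only, 33.1% (28.1 to 38.5) had a gene start within 1 kb, and of the 175 bins at most 0.1 in tail only, 24.0% (17.9 to 31.0). Of the 9568 bins above 0.8 in both libraries 3.68% had one, and of all measured bins 12.6%. The intervals of these shares do not overlap that of the bins unmethylated in both. Their median number of CpG sites was 78.0 per bin, against 25 in bins low in sperm only and 16 in bins low in tail only. Both kinds of bin that were low in 1 library were more often near an IAP copy, 12.8% in sperm only and 10.3% in tail only, than the bins unmethylated in both.

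IAP copies were almost absent from the set. Only 8 of the 1776 unmethylated bins (0.45%, 0.195 to 0.886) lay within 1 kb of an IAP copy, against 61.3% of all measured bins, and 2 overlapped one (0.113%, 0.0136 to 0.406), against 58.1%. Of the 10899 measured bins with an IAP copy within 1 kb, 7447 (68.3%) were above 0.8 in both and 8 (0.0734%) were unmethylated in both. Among the bins near an IAP copy, the unmethylated ones were 3 of 365 with a gene start within 1 kb and 5 of 10534 without. The median distance from an unmethylated bin to the nearest IAP copy was 119000 bp.

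The sequence of the bins was that of CpG islands. The median unmethylated bin had 78.0 CpG sites, a GC content of 62.9% and a ratio of observed to expected CpG sites of 0.803 (0.792 to 0.813). The medians over all measured bins were 20 CpG sites, 46.4% GC and a ratio of 0.389. Island-like sequence, taken as GC of at least 50% and a ratio of at least 0.6 over the whole bin, was found in 1448 unmethylated bins (81.5%, 79.6 to 83.3), against 9.19% of all measured bins and 1.16% of the others. Repeats were few: 71.9% of the unmethylated bins had under 10% repeat-masked sequence, against 16.4% of all measured bins, and 10 had more than 50% masked. The median masked share was 6.1%, against 17.2% in other bins with no IAP copy within 1 kb and 77.3% in other bins with one. An exon overlapped 89.6% of the unmethylated bins, 4.90% lay in introns only and 5.46% between genes. Over all measured bins, of which 61.3% lay within 1 kb of an IAP copy, 54.8% lay between genes.

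Among bins with no IAP copy within 1 kb, the share that was unmethylated in both libraries was higher with the number of CpG sites. It was 0.058% at 0 to 9 sites, 1.26% at 10 to 19, 17% at 20 to 39, 82.7% at 40 to 59, 90.9% at 60 to 79, 95.1% at 80 to 99 and 97.9% at 100 or more. The step lay between 20 and 59 sites. Of the 1542 island-like bins with no IAP copy near, 1446 (93.8%) were unmethylated in both. Island-like bins were mostly unmethylated with a gene start within 1 kb (1219 of 1286, 94.8%) and without one (227 of 256, 88.7%, 84.1 to 92.3). Bins without island-like sequence were unmethylated in 36.4% of 588 cases with a gene start within 1 kb and in 2.27% of 4758 without.

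**Figure D2:**
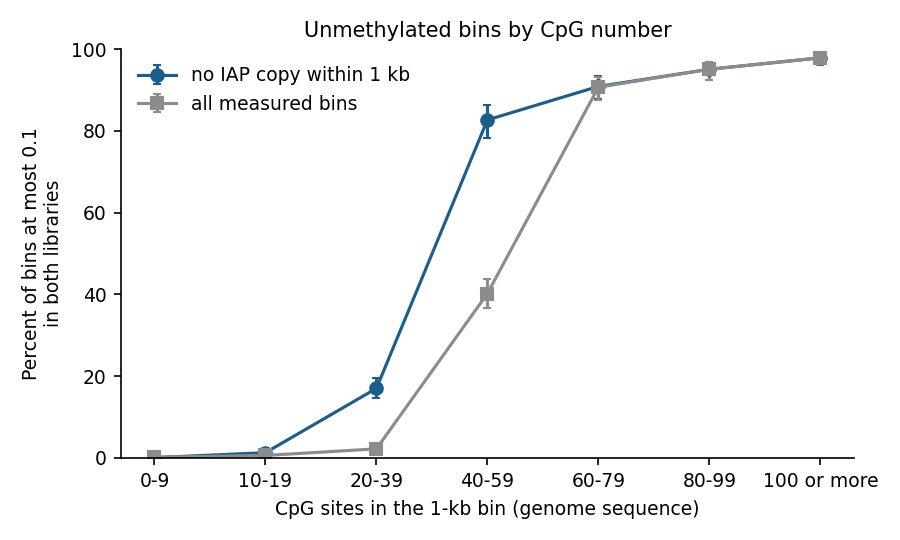
Percent of 1-kb bins at most 0.1 in both libraries (y axis) by the number of CpG sites in the genome sequence of the bin (x axis), for bins with no IAP copy within 1 kb and for all measured bins; lines on the points are exact 95% intervals. Of the bins with no IAP copy near, 17% were unmethylated at 20 to 39 sites and 82.7% at 40 to 59 sites.

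The depth of the unmethylated bins was low, which limits what each one shows. The median unmethylated bin had 46.0 calls in sperm and 46.0 in tail, against 461 and 349 over all measured bins. These calls were spread over many positions: a median of 21.0 covered CpG positions in sperm (20 to 22.0) and 23.0 in tail (22.0 to 23.0), counted per strand, against 8.0 and 9.0 over all measured bins. A covered position therefore had a median of 2.18 calls in sperm and 2.03 in tail, against 73.4 and 51.0 over all measured bins. Bins that were not in the set had a median of 19.2 calls per position in sperm and 16.7 in tail with no IAP copy within 1 kb, and 250 in sperm and 139 in tail with one. The covered positions were 14.4% of the CpG cytosines of a bin in sperm and 15.4% in tail, against 22.2% and 23.1% over all measured bins.

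**Figure D3:**
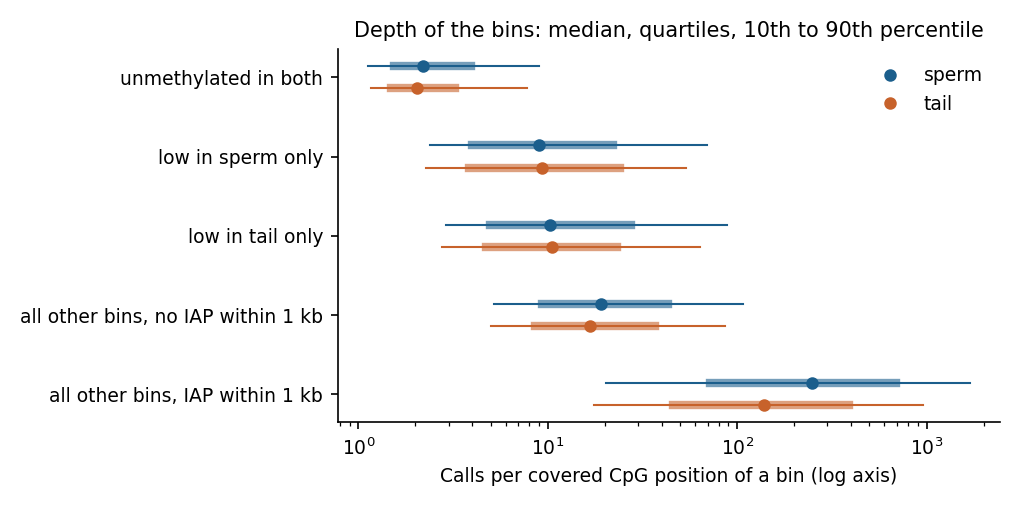
Calls per covered CpG position of a bin (x axis, log scale) in sperm and tail for the bins unmethylated in both, the bins low in 1 library, and all bins not in the set with and without an IAP copy within 1 kb; points are medians, thick lines quartiles and thin lines the 10th to 90th percentile. The unmethylated bins had medians of 2.18 in sperm and 2.03 in tail.

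Since the calls of a bin are summed over positions, a CpG-dense bin passes the minimum of 20 with fewer calls per position. When at least 5 calls per covered position were required in both libraries, a setting chosen after seeing the data, 188 of 15190 bins (1.24%) were unmethylated. Of these 188 bins 69.1% had a gene start within 1 kb, against 4.45% of the other bins that passed the same setting, and their median observed over expected ratio was 0.572, against 0.364. By the calls in the library with fewer, 27.0% of bins with 20 to 49 calls, 14% with 50 to 99, 3.99% with 100 to 499 and 0.482% with 500 or more were unmethylated. Without bins that had an IAP copy within 1 kb, these shares were 31.9%, 20.9%, 11.4% and 12.7%.

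The unmethylated bins held few methylated calls in either library. Their levels were 2470 of 329444 calls (0.75%) in sperm and 4276 of 265543 (1.61%) in tail. Without the 2 bins of an 18S rRNA-like gene and the LTR bin of chromosome 3, which were deep and partly methylated, 916 of 249148 sperm calls (0.368%) and 1637 of 201824 tail calls (0.811%) were methylated. No methylated call was seen in 1498 bins (84.3%) in sperm, in 1361 (76.6%) in tail and in 1197 (67.4%) in either library. The level was higher in sperm in 206 bins, lower in sperm in 373 and equal in 1197. The 10 deepest bins held 48.4% of the set's sperm calls and 38.2% of its tail calls. At 2679 positions with at least 5 calls in both libraries, 2537 (94.7%) were at most 0.1 in both, and 1 was 0.5 or above in both.

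Both libraries often read the same bins at different positions. Only 14216 positions were covered in both libraries, and 460 bins had no position in common. The median per bin was 6.0, against 7.0 over all measured bins, and the lower quartile was 0, against 3.0. The share of all measured bins with no position in common is not given here. The medians of covered positions were 21.0 in sperm and 23.0 in tail, against 8.0 and 9.0 over all measured bins. Calls came from 1 strand only in 1281 bins in sperm and in 929 in tail, and the share over all measured bins is not given here. The bins formed 1657 runs of adjacent bins, of which 1538 were single bins and 119 were pairs. Of 3312 bins directly beside them and not in the set, only 35 were measured with no IAP copy within 1 kb. Of these 35, 28 were at most 0.1 in at least 1 library. The runs therefore do not give the length of the unmethylated stretches.

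Beside the unmethylated bins the level was higher with distance. In sperm the mean level over CpG positions was 1.85% in the first 250 bp outside a bin, 14.6% at 501 to 1000 bp, 31.6% at 1001 to 1500 bp and 63.9% at 4001 to 5000 bp. In tail it was 2.95%, 15.7%, 25.5% and 47.9% at the same distances. Positions more than 5 kb from both an IAP copy and an unmethylated bin had a mean of 67.5% in sperm and 56.8% in tail. By this mean tail was above sperm within 1000 bp of a bin and sperm above tail beyond it, but with summed calls the order differed: 21.4% in sperm and 15.9% in tail at 501 to 1000 bp, and 38.5% in sperm and 44.1% in tail at 1501 to 2000 bp. No order of the libraries beside the bins is drawn from these values.

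**Figure D4:**
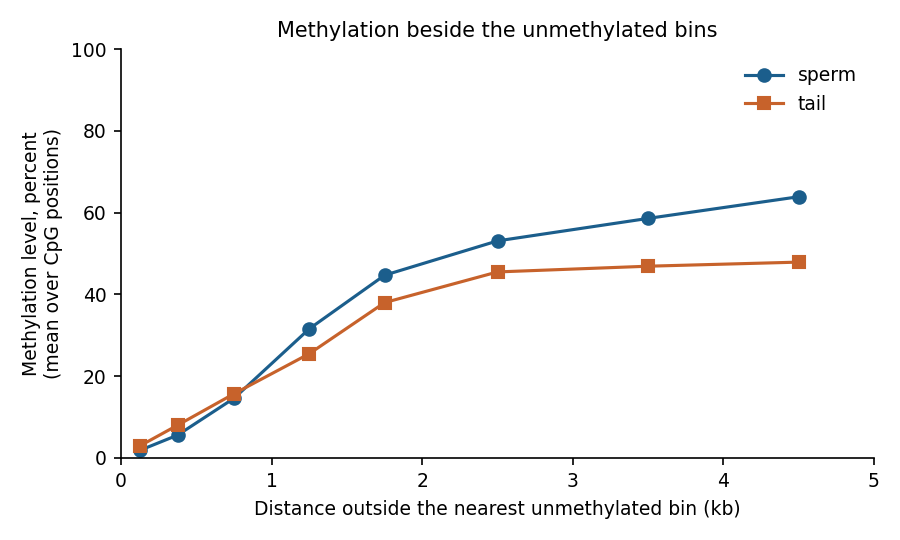
Mean methylation level over CpG positions (y axis, percent) by distance outside the nearest unmethylated bin (x axis, kb, at the middle of each distance class) in sperm and tail. The level was 1.85% in sperm and 2.95% in tail within 250 bp, and 63.9% in sperm and 47.9% in tail at 4001 to 5000 bp.

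Among the deepest unmethylated bins were starts of genes of DNA repair, metabolism and signalling. The bin of Mcm8 and Trmt6, whose product is a subunit of a tRNA methyltransferase, had 112 methylated of 23757 sperm calls (0.471%, 0.388 to 0.567) and 69 of 13685 tail calls (0.504%, 0.393 to 0.638), and the 2 intervals overlap. The Pgp bin had 27 of 16464 in sperm (0.164%) and 15 of 7379 in tail (0.203%) over 77 and 56 covered positions. The Brca2 bin, at the start of a gene of homologous recombination, had 18 of 14207 in sperm (0.127%) and 4 of 3631 in tail (0.110%). These bins were low in both libraries to a similar degree. The Pank3 bin (pantothenate kinase, coenzyme A synthesis) had 19 of 5522 in sperm and 7 of 3046 in tail. The bin of E4f1, a zinc-finger transcription factor whose start lies 314 bp away, had 8 of 5138 in sperm and 3 of 2141 in tail from only 8 covered positions in each.

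The Socs1 bin had 32 of 8448 methylated calls in sperm (0.379%, 0.259 to 0.534) and 1 of 2354 in tail (0.0425%, 0.00108 to 0.236). The Trmt6 bin beside that of Mcm8 was lower in sperm, with 7 of 5634 in sperm (0.124%, 0.05 to 0.256) and 31 of 2267 in tail (1.37%, 0.931 to 1.94). Of the 20 deepest bins, the largest difference in level was that of a bin in an intron, 1317 bp from the start of Epb41l3, a gene of the membrane skeleton. It had 11 of 1676 in sperm (0.656%, 0.328 to 1.17) and 117 of 1558 in tail (7.51%, 6.25 to 8.93). The bin of Npr1, a receptor for natriuretic peptides, had 4 of 1104 in sperm and 47 of 3271 in tail (1.44%). The choice of the bins kept all of these levels at or under 0.1. With 1 library per tissue a difference between tissues and one between libraries cannot be told apart.

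The other deep bins were close to 0. E2f2, a transcription factor of the cell cycle, had 16 of 3349 in sperm and 2 of 1659 in tail. Uchl3, a ubiquitin hydrolase, had 4 of 3230 in sperm and 2 of 1278 in tail, and Tob1, an antiproliferative gene, 2 of 1120 in sperm and 2 of 1833 in tail. Kbtbd2, an adaptor of a ubiquitin ligase, had 2 of 1419 in sperm and 3 of 1197 in tail. The bin shared by Dync1li2, a dynein subunit, and the antisense K230015D01Rik had 3 of 2056 in sperm and 5 of 1467 in tail. 2 of these other deep bins had no gene start within 1 kb. The one 1088 bp from the gene start of Arhgef1 had 7 of 2938 in sperm and 15 of 4038 in tail, and an annotated transcript start lay inside it. The one 2594 bp from Fbxl22 had 2 of 1709 in sperm and 4 of 2714 in tail.

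**Figure D5:**
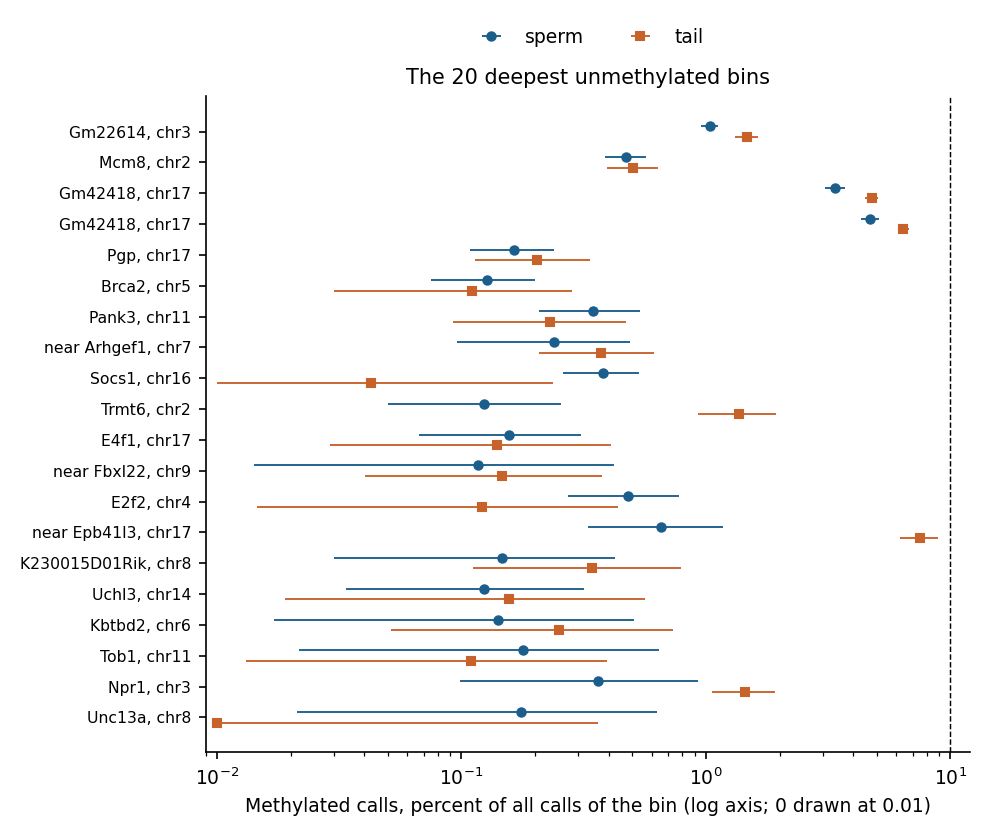
Methylated calls as a percent of all calls (x axis, log scale, 0 drawn at 0.01) in sperm and tail for the 20 deepest unmethylated bins, named by gene and chromosome; points are values, lines exact 95% intervals and the dashed line the limit of 10%. Of these bins, 17 lay below 2% in both libraries.

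The 2 bins of Gm42418 on chromosome 17, annotated as Rn18s-rs5 by RefSeq and similar to the repeated ribosomal DNA, were the exception among the deep gene starts. The first had 446 of 13223 methylated calls in sperm (3.37%, 3.07 to 3.69) and 1037 of 21772 in tail (4.76%, 4.48 to 5.05). The second had 530 of 11282 in sperm (4.70%, 4.31 to 5.10) and 1278 of 19917 in tail (6.42%, 6.08 to 6.77). They had the most covered positions of all, 188 and 226 in the first bin in sperm and tail. Reads from near-identical copies of ribosomal DNA cannot be told apart here, so both values are uncertain as values of this locus.

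The bins with the most covered positions had few methylated calls. The bin of Tmem189 and of Cebpb, a transcription factor of the liver and of fat cells, had 0 of 267 in sperm and 0 of 544 in tail over 71 and 102 positions. The bin of Lpin2, a phosphatidate phosphatase, had 0 of 165 in sperm and 0 of 114 in tail. Purb had 0 of 71 in sperm and 0 of 88 in tail, and Slc2a13, a transporter of myo-inositol, 0 of 250 in sperm and 3 of 503 in tail. If every call is taken as independent, the upper bound of the exact interval is 1.37% for the sperm value of Tmem189 and 5.06% for that of Purb. Several calls can come from 1 molecule, and the 71 sperm calls of Purb lay on 62 positions. Levels above these bounds are therefore possible. A bin on chromosome 4, 18350 bp from the start of Foxo6, had 0 of 105 in sperm and 0 of 133 in tail, and one on chromosome 5 at 30114000 had 1 of 982 in sperm and 3 of 1325 in tail.

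The LTR bin of chromosome 3, 271 bp from the snRNA gene Gm22614, had 578 of 55791 methylated calls in sperm (1.04%, 0.954 to 1.12) and 324 of 22030 in tail (1.47%, 1.32 to 1.64), the highest depth of the set. By genome coordinate the lower edge of the LTR is at 96489247. Nearly all calls lay in the flank below this edge and in the part of the LTR next to it. The reverse complement of the stretch shown holds gaagatgtaag, letters also found in IAP-BS2. The paper designed IAP-BS2 in the forward orientation, for the 3′ region and the sequence downstream. By these letters the edge is the 3′ end of the LTR, and this was not tested further. The flank had 16 of 14028 methylated calls in sperm (0.114%) and 2 of 2979 in tail (0.0671%). 5 LTR positions between 96489256 and 96489273 had 0.431% to 0.986% in sperm and 0 to 2.09% in tail. The position at 96489308 had 4.57% (307 of 6725) in sperm and 4.60% (172 of 3738) in tail. Positions from 96489505 on were covered by only 2 sperm calls and 5 tail calls each and were methylated in 50% to 100% of sperm calls and 60% to 100% of tail calls. The low level of this bin is therefore that of 1 end of the LTR and the sequence beside it.

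The other bin that overlapped an IAP copy, on chromosome 13 in an IAPLTR2a2, had 34 of 407 in sperm (8.35%, 5.85 to 11.5) and 168 of 2230 in tail (7.53%, 6.47 to 8.71). Inside the LTR 9 of 352 sperm calls (2.56%) and 52 of 1981 tail calls (2.62%) were methylated, and outside it 25 of 55 sperm calls (45.5%) and 116 of 249 tail calls (46.6%). Nearly all calls inside the LTR came from the positions 62550748 and 62550789. The LTR position 62550720 was methylated in 3 of 3 sperm calls and 2 of 2 tail calls, so the low level is not that of the whole LTR. One position of the internal sequence beside the LTR, at 62550562, was methylated in 21 of 25 sperm calls (84.0%) and 98 of 122 tail calls (80.3%). It was the only position of the set at 0.5 or above in both libraries with at least 5 calls in each.

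The remaining 6 bins within 1 kb of an IAP copy were mostly flanks with few CpG positions. The chromosome 17 bin whose sequence is shown had 0 of 191 in sperm from 1 position and 1 of 59 in tail from 2. Over the 241 bases shown, which continue into the LTR, 2000 of 2418 sperm calls and 351 of 526 tail calls were methylated. The calls over the LTR were thus mostly methylated, while the CpG site of the bin beside it was not. The bins on chromosome 13 at 86720000 and chromosome 4 at 9400000 had 1 and 2 positions and no methylated call among 25 and 33 sperm calls or among 35 and 23 tail calls. The bin on chromosome 10 had 2 of 21 in sperm and 2 of 65 in tail. The Tescl bin had 0 of 72 in sperm and 2 of 21 in tail. The Gpbp1 bin, 819 bp from an internal IAP sequence, was an ordinary promoter bin, with 3 of 351 in sperm and 1 of 190 in tail over 74 and 52 positions.

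Matches to the PCR primers were short. The longest run that matched the 3′ end of the primer within 600 bp of a bin, on converted sequence, had a median of 7.0 bases for IAP-BS1 and 8.0 for IAP-BS2 in the unmethylated bins. It was 9.0 and 9.0 in other bins with no IAP copy within 1 kb, and 18 and 29.0 in other bins with one. How reads from bins without an IAP copy entered the libraries was not tested.

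Few genes on lists of known classes were measured, and the exact interval of each list's share included that of all protein-coding genes. Of 2484 genes of any kind with a measured bin within 1 kb of their start, 1747 (70.3%) had an unmethylated one. Of 1639 protein-coding genes with a measured bin within 1 kb of their start, 1403 (85.6%, 83.8 to 87.3) had an unmethylated one. Of 164 developmental regulators 27 were measured and 25 had one (92.6%, 75.7 to 99.1). Examples were Hoxa9 (0 of 62 in sperm and 0 of 33 in tail), Foxe3 (0 of 243 and 0 of 67), Six2 (0 of 115 and 0 of 41) and Gata5 (0 of 60 and 1 of 38). The exceptions were Tbx3 and Hoxc13, low in sperm and above the limit in tail, with 0 of 31 in sperm and 4 of 29 in tail for Tbx3 and 0 of 83 and 8 of 47 for Hoxc13. Of 88 ribosomal protein genes 2 were measured, Rpl5 (0 of 77 and 0 of 33) and Rpsa (3 of 31 and 2 of 73), and both had an unmethylated bin. All 6 measured proteasome genes of 49 had one, among them Psmd8 (0 of 53 and 0 of 43) and Psmb3. The 3 measured histone genes of 80 had one, with Hist1h1a and Hist1h3a in the same bin (0 of 45 and 0 of 46).

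Few imprinted and germline genes were measured. Imprinted control regions carry methylation on the allele of 1 parent in somatic cells, and sperm carries the paternal state only. Of 17 genes with maternal methylation 4 were measured: Zrsr1 (1 of 87 in sperm and 0 of 52 in tail) and Impact (1 of 38 in sperm and 0 of 23 in tail) had an unmethylated bin, Kcnq1ot1 had 89 of 329 in sperm and 41 of 221 in tail, and Inpp5f 374 of 375 and 517 of 592. Of 5 with paternal methylation, only Zdbf2 was measured, at 0 of 21 in sperm and 0 of 30 in tail. The germline gene Mael, in piRNA-guided silencing, was the only one measured of 18 and was not in the set, at 1508 of 1697 in sperm and 1054 of 1372 in tail. Whether these bins hold the imprinted control regions was not tested, so the values are no check of the libraries.

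Gene starts on both strands within 1 kb were found in 370 of the 1436 unmethylated bins with a gene start (25.8%, 23.5 to 28.1), against 45 of 803 other measured bins with a gene start (5.6%, 4.12 to 7.43). The nearest start belonged to a protein-coding gene in 1236 of the 1436 bins (86.1%), to an antisense RNA in 75 and to a microRNA gene in 20.

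The 340 unmethylated bins with no gene start within 1 kb were partly promoters of other transcripts: 172 (50.6%) had an annotated transcript start within 1 kb, against 2.83% of the other measured bins with no gene start within 1 kb. An exon overlapped 235, 39 lay in introns only and 66 between genes. Island-like sequence was found in 227 (66.8%). Of the 86 with no transcript start within 5 kb, 34 were island-like. All 340 bins together had a median of 66.0 CpG sites, against 80 in the unmethylated bins with a gene start within 1 kb.

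RefSeq promoters whose start lay in an unmethylated bin (1073 sequences of 300 bases) had a median of 29.0 CpG sites. The median was 9.0 for 154 promoters in other measured bins and 7.0 for all 31396 promoters of chromosomes 1 to 19. The letters GGGCGG, the GC box bound by Sp1 family factors, were found on either strand in 77.9% of the promoters in the set, against 37.7% of the promoters in other measured bins and 36.0% of all promoters. TATAAA was found in 4.01%, against 11.0% and 13.6%. CCGGAAG, an ETS family site, was found in 16.1%, against 5.19% and 9.0%, and TGACGTCA in 4.01%, against 4.55% and 1.83%. The CpG number of these groups of promoters differed as given above, and its part in the motif shares was not tested. A match is a description of letters only.

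The chromosomes differed in the share of measured bins that were unmethylated, which was 6.38% on chromosome 3 and 15.5% on chromosome 11, the lowest and the highest. Just inside the limit of 0.1 lay bins near Gm43766 and Chd8 (0 of 26 in sperm, 9 of 90 in tail), Ier5 (2 of 20, 1 of 80) and Notumos (2 of 20, 0 of 32). Just outside lay the bin of Gm49364 and Ptger2 (0 of 261, 20 of 194), one on chromosome 16 at 57391000 (0 of 170, 35 of 337) and that of Dnlz (5 of 49, 0 of 26).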

How the data were processed

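TEPBAT libraries from sperm and tail DNA of 1 C57BL/6J male were analysed. The authors mapped the reads to mm10 with Bismark (version not given in the sources used here) and deposited 1 line per covered CpG cytosine (strands apart) with a percent methylated and 2 counts, of methylated and of unmethylated calls. The deposited percent was not used further. The deposited counts were summed per 1-kb bin of chromosomes 1 to 19 in Python 3.11.15 (pandas 2.3.3, numpy 2.4.6, scipy 1.17.1). A bin was measured when both libraries gave it 20 calls or more, and kept when both levels were at or under 0.1. The binning code was run on simulated calls with every bin level far below or far above the limit of 0.1. Bins near the limit and linked calls of 1 read were not simulated, so this run checks the code only. Gene and transcript starts came from GENCODE M21, and sequence from GRCm38. IAP copies were found by blastn 2.17.0 with 264 IAP sequences taken at the coordinates of an annotation table of the study (at least 80% identity over 100 bp), which gave 15823 LTR and 15980 internal regions. Of 721 chromosome 1 LTRs of that table not used as query, 721 were found. Distances were measured from the bin edge. Shares have exact binomial 95% intervals and medians order-statistic intervals. With 1 library per tissue nothing was tested. Bins named in the text were the 20 deepest (of those with 100 calls or more in sperm and in tail), the 10 deepest near a gene start and near an IAP copy, the 10 with most covered positions, those of genes on fixed lists, and the 3 on each side of the limit. A bin that this rule names is not reported here. The members, lists and rules were chosen with earlier results of these data known.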

Additional observations from a re-analysis of the deposited data

Results flagged for a closer look

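Data outside the rule also held unmethylated bins. On the X chromosome 13 of 878 bins measured in both libraries (1.48%, exact interval 0.791 to 2.52) were at most 0.1 in both, and on the Y chromosome 0 of 266, which allows up to 1.38%. Bins with at least 20 calls in only 1 library were not in the set. Of 14070 such bins in sperm 3725 (26.5%) were at most 0.1, and 63.1% of these lay within 1 kb of a gene start. Of 13646 such bins in tail 4518 (33.1%) were at most 0.1, with 70.7% within 1 kb of a gene start. Where the other library had 5 to 19 calls, 1051 of 1361 low sperm bins (77.2%) were also at most 0.1 in tail. Of the low tail bins, 947 of 1077 (87.9%) were at most 0.1 in sperm. The same shares over all bins with at least 20 calls in only 1 library are not given here, for gene starts or for the other library. These values are therefore not set against a background.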

How the results depend on the processing

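No paired analysis was possible because each tissue has 1 library and no test was made. Of 72 values under 17 alternative settings, 45 lay within the interval of the reported value, or within 1.5 times for the number of bins. With a call minimum of 10 the number of unmethylated bins was 3463, with medians of 16 covered positions in sperm and 17 in tail and an observed over expected ratio of 0.774. With 50 calls it was 452 bins, 28.0 positions in sperm and 34.0 in tail. With 100 calls it was 162 bins, 1.85% within 1 kb of an IAP copy, 25 positions in sperm and 34.5 in tail, and a ratio of 0.713. With 2-kb bins 83.1% lay within 1 kb of a gene start, with 23.0 positions in sperm, 25 in tail and a ratio of 0.694. A minimum of 5 calls per covered position, chosen after seeing the data, gave 188 bins, 69.1% near a gene start, 3.19% near an IAP copy, 14 positions in sperm and 15.0 in tail, and a ratio of 0.572. A gene start lay within 500 bp of 75.2%, within 5 kb of 89.9%, and a protein-coding one within 1 kb of 76.6%. An IAP copy overlapped 0.113% and lay within 5 kb of 2.48%. The cause of these shifts was not tested, except that higher call minimums leave fewer bins. Leaving out the 18S-type bins and the chromosome 3 LTR bin, also chosen after seeing the data, left all 6 results within their limits. Depth, at about 2 calls per position, limits single bins.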
